A study of Mus musculus with 6 samples.

Results

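The MYC-MAX-MXD network is a family of transcription factors that share a basic helix-loop-helix leucine zipper. The genes examined were Myc, Mycn, Mycl, Max, Mxd1, Mxd3, Mxd4, Mxi1 (also called Mxd2), Mnt and Mga, chosen by name. Each was found in the deposited table by its Entrez gene ID, 10 genes of 24454. A gene was tested if 3 or more libraries reached 10 normalized counts, and 9 of the members did, among 12642 tested genes. Mycn was below this limit and is given by its values only.

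MYC proteins bind DNA as dimers with MAX, mostly at the E-box CACGTG, and recruit coactivators that raise transcription of genes for growth, ribosome production and metabolism. MXD proteins, MXI1 and MNT also pair with MAX, bind the same sites, and recruit the SIN3 corepressor with its histone deacetylases. MGA pairs with MAX as part of a variant Polycomb complex. In myeloid cells MYC is typical of proliferating precursors, whereas MXD1 is known to rise as granulocytes mature, and leukaemia cells driven by MLL fusions are known to depend on MYC.

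The study compared leukaemic blasts with and without a transgene for Stat3β, a splice form of the transcription factor STAT3 with a shorter C-terminus. Wild-type (WT) cells came from fetal livers of C57BL/6 littermates, and Stat3β TG cells from C57BL/6 mice that carried Mx1-Cre and the Stat3β transgene. Cells of both groups had been transformed with an MLL-AF9 retrovirus, an oncogenic fusion, and transplanted into NSG mice, hosts without lymphocytes of their own. Recipients received poly(I:C), which switches on the interferon-responsive Mx1-Cre, at 4 weeks, and MLL-AF9+ (Venus+) blasts were sorted from bone marrow at 6 weeks. RNA sequencing gave 3 WT and 3 Stat3β TG libraries. The labels do not say whether the replicates of a group came from separate donors, so p-values measure only the spread between these samples, part of which may be technical.

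Recovered reads per library ranged from 21809788 to 51934498. Stat3 was at 8058, 16112 and 10879 normalized counts in WT 1 to 3 and at 11129, 9846 and 8034 in Stat3β TG 1 to 3; a gene-level value sums its splice forms and is no check of the transgene. WT 2 and WT 3 stood apart from the other 4 libraries on the first principal component (47.4% of the variance), and WT 1 lay with Stat3β TG. By sex-linked genes the libraries fell another way: Xist reached 42699.5 in WT 1 and 45196 in WT 3 (normalized counts) but at most 835 elsewhere, and the sum of 4 Y-linked genes was 58.8, 11012 and 71.8 in WT 1 to 3 and 8781 to 9465 in Stat3β TG. WT 2 was thus not a technical repeat of WT 1 or WT 3. Every Stat3β TG library had the Y-linked pattern, but WT 2 alone did in WT, so sex is partly confounded with group. Its part in the differences between the groups was not tested. All 10 blast markers (among them Kit, Mpo, Hoxa9 and Meis1) were present in every library. Of 12 erythroid markers the 4 globin genes were listed at 0 in all 6 libraries, while Alas2 was at 12.7 to 149. Of 9 T and NK cell markers in the table Cd3e was listed at 0, but Lck was at 28.1 to 82.7 and Klrb1c at 7.04 to 98.0. All 6 tested T and NK markers were higher in Stat3β TG (median log2 difference 1.02), with sums of 214 to 1677 in WT and 823 to 1126 in Stat3β TG. So were 4 of 4 megakaryocyte markers (median 0.70), with sums of 778 to 2578 and 1167 to 2263. With WT 1 as the only WT library, 0 of the 6 T and NK markers were higher (median -0.50) and 3 of the 4 megakaryocyte markers (median 0.20). Without WT 3, 4 of the 6 T and NK markers were higher (median 0.31). All 15 mature neutrophil markers had higher mean log2 values in Stat3β TG, and their summed level was 113225 to 389383 normalized counts in WT and 399057 to 591843 in Stat3β TG. For monocytes and macrophages 9 of 13 tested markers were higher, with sums of 73926 to 104443 and 96734 to 141010, and for eosinophils 2 of 4, with sums of 8998 to 43126 and 5589 to 10699.6. With WT 1 as the only WT library, 11 of 15 neutrophil, 3 of 13 monocyte and macrophage and 0 of 4 eosinophil markers were higher in Stat3β TG. None of the neutrophil markers was at 0 in all libraries. The part of these markers in the results that follow was not tested, and in bulk RNA a change in the number of cells of a type and a change in RNA per cell cannot be told apart.

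The E-box itself occurs near start sites of some network genes. RefSeq (GRCm38.p6) gave promoter windows, from 250 bases before to 50 bases after a start site, for 9 of the 10 genes, and Myc had none in the table. CACGTG reads the same on both strands. It was present in the windows of Max, Mnt and Mxd4, 3 of 9 genes (33.3%), against 11.7% of 10108 tested genes with a window and 8.09% of all 27025 genes with one. In the MLX branch, a parallel network whose proteins bind related sites, Mlx and Mlxipl had it, 2 of 3. Of 33 genes induced by MYC with a window, 9 (27.3%) had it. The 30 bases around each match are shown because the E-box is the sequence that MYC-MAX and MXD-MAX dimers compete for; capitals mark it, and all read 5′ to 3′ on the strand of the gene.
Max, minus strand, chr12:76962234-76962263: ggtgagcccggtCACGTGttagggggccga
Mnt, plus strand, chr11:74830789-74830818: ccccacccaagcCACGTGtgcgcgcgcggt
Mxd4, minus strand, chr5:34187912-34187941: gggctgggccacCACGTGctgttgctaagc
Mlx, plus strand, chr11:101087238-101087267: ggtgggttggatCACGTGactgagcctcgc
Mlxipl, plus strand, chr5:135089780-135089809: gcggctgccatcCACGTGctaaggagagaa
The E-box began 3 bases before the start site in Max, 123 before it in Mnt, 219 in Mxd4, 40 in Mlx and 98 in Mlxipl. These start sites are those of the promoter windows, and for Max and Mnt they lie inside the gene spans given below. The Max match is thus within the span of its gene, and the Mnt match reaches the first base of its own. A match shows the letters only; binding was not measured.

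Myc and Max were the most abundant network transcripts per length, and Mycn was close to absent. Levels between genes were compared as normalized counts per kilobase of coding-transcript exon (GENCODE M21 lengths). Myc averaged 2440.4 per kilobase over the 6 libraries, Max 1602, Mxi1 805, Mxd1 718, Mnt 523, Mxd3 404, Mxd4 349.7, Mga 282, Mycl 82.8 and Mycn 0.730. Using the longest coding transcript in place of all exons left this order as it was. Myc was above Max in 6 of 6 libraries, by 1.10 to 2.51 times, although their ranges overlapped. Max was above Mxi1 in all 6 with no overlap. Mxi1 exceeded Mxd1 in only 4 of 6 libraries, Mnt exceeded Mxd3 in 5 and Mxd3 exceeded Mxd4 in 5, so these neighbours are not separated by more than their spread. Mga was above Mycl, and Mycl above Mycn, with no overlap.

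**Figure D1:**
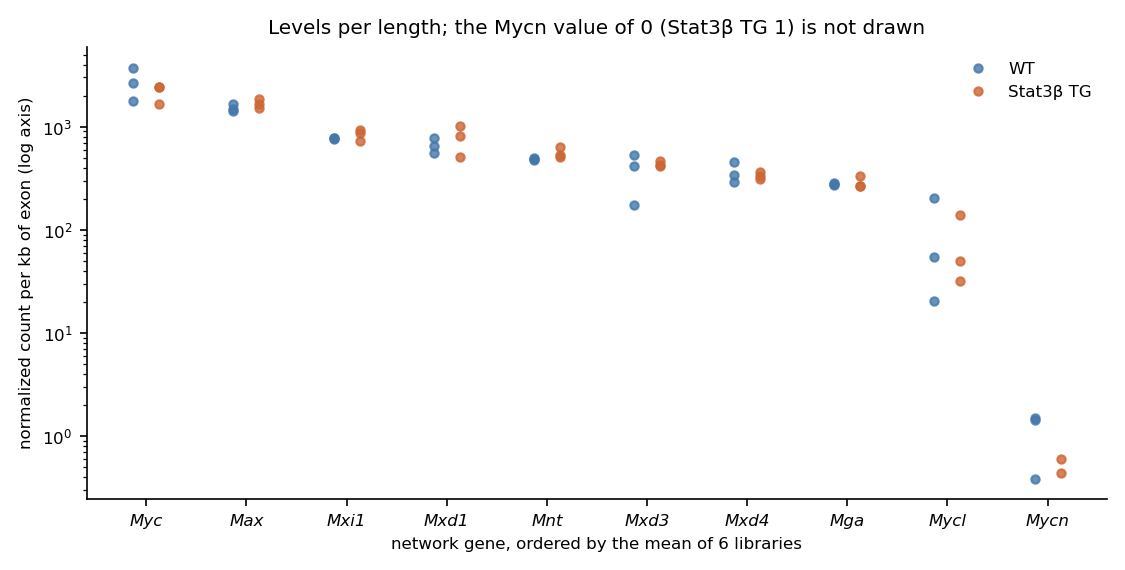
Normalized counts per kilobase of exon (log axis) of the 10 network genes, ordered by their mean, with 1 point for each WT (blue) and Stat3β TG (orange) library. The Mycn value of 0 in Stat3β TG 1 is not drawn. Myc and Max lie at the top, Mycl spans 20.4 to 202 and Mycn is below 2 in every library.

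Myc, which encodes the central activator, varied as much within WT as between the groups. It lies on chromosome 15 at 61985341 to 61990361 (plus strand, GRCm38). Its normalized counts were 4327, 6434 and 9155 in WT 1 to 3 and 5912, 4078 and 5924 in Stat3β TG 1 to 3. The groups overlapped: WT 3 was the highest library, and WT 1 lay beside Stat3β TG 2 at the low end. The means were 6639 ± 2420.3 and 5305 ± 1062 (SD, n = 3 each), and the log2 difference of Stat3β TG minus WT, on log2(normalized count + 1), was -0.28 ± 0.28 (SE; limma adjusted p = 0.744). As a fold this is 0.824, with a 95% interval of 0.522 to 1.30. The size depended on single libraries. It was -0.55 without WT 1 (limma adjusted p = 0.177), -0.01 without WT 3 and -0.10 without Stat3β TG 2, and it was 0.27 without both WT 2 and WT 3. Over 15 alternative settings the adjusted p of Myc ranged from 0.177 to 0.9999.

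Mycl, a MYC paralogue known in dendritic cells, was the most variable network gene. It stands on chromosome 4 at 122995588 to 123002490 (plus strand). WT libraries held 738, 74.5 and 198 normalized counts, and Stat3β TG libraries 117, 182 and 507. Each group thus had 1 library well above the others, WT 1 and Stat3β TG 3. Between the groups the difference was -0.01 ± 0.85 on the log2 scale (SE; limma adjusted p = 0.999), and its 95% interval ran from 0.252-fold to 3.93-fold. Leaving out WT 1 turned it to 0.86, and leaving out WT 2 gave -0.79. Of all tested genes, 97.1% had a smaller residual SD.

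Mycn, the paralogue of neural and other embryonic tissues (chromosome 12, 12936093 to 12941836, minus strand), had 1, 3 and 3 reads in WT 1 to 3 and 0, 1 and 3 in Stat3β TG 1 to 3. All are at or under the 3 reads that a count of 0 allows, so no fold is given.

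Max, the obligate partner of every other member, was steady. It is on chromosome 12 at 76937269 to 76962323 (minus strand), with 2788, 3224 and 2921 normalized counts in WT and 3271, 2979.7 and 3632 in Stat3β TG. Stat3β TG 2 fell within the WT range, and the other Stat3β TG libraries were above it. The means of 2978 ± 224 and 3294 ± 327 (SD, n = 3 each) gave a log2 difference of 0.14 ± 0.14 (SE; limma adjusted p = 0.739), or 1.10-fold with a 95% interval of 0.879 to 1.39. It stayed between 0.07 and 0.21 when any single library was left out.

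**Figure D2:**
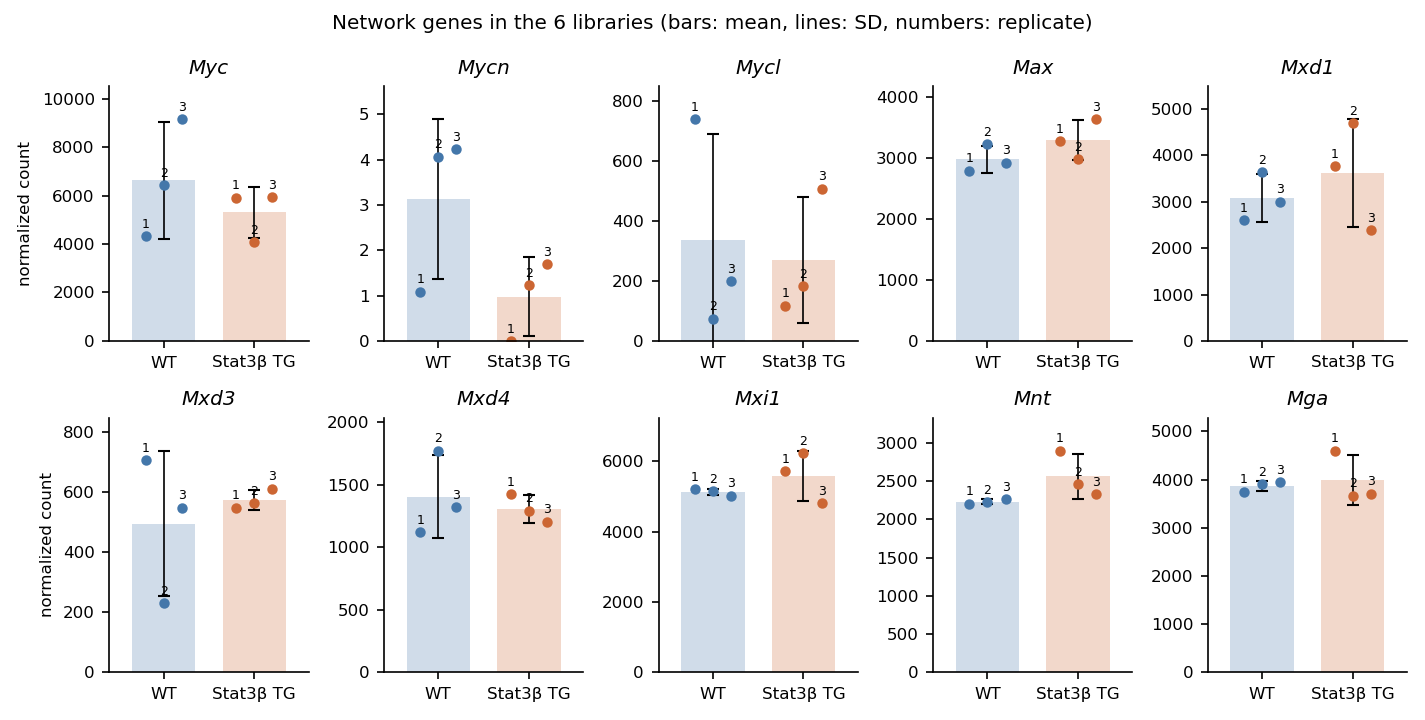
Normalized counts of the 10 network genes in WT (blue) and Stat3β TG (orange), each panel on its own axis from 0; bars are means, lines the SD (cut at 0 for Mycl), and numbers the replicate. Only Mnt among the 9 tested genes has every Stat3β TG library above every WT library.

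Mxd1 (chromosome 6, 86647044 to 86669234, minus strand), the MXD repressor linked to myeloid maturation, had 2608, 3639 and 3001 normalized counts in WT and 3775, 4697 and 2393 in Stat3β TG. Stat3β TG 2 was the highest of the 6 libraries and Stat3β TG 3 the lowest, so the groups overlapped throughout. The log2 difference was 0.19 ± 0.26 (SE; limma adjusted p = 0.804), 1.14-fold with a 95% interval of 0.756 to 1.73, and -0.02 without Stat3β TG 2.

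Mxi1, an MXD repressor (chromosome 19, 53310128 to 53373293, plus strand), had the highest mean per length of the MXD genes, though not separated from Mxd1. It was nearly constant in WT at 5213, 5144 and 5024 normalized counts, and at 5717, 6225 and 4806 in Stat3β TG, which lay on both sides of WT. Stat3β TG minus WT was 0.11 ± 0.14 on the log2 scale (SE; limma adjusted p = 0.791), with a 95% interval of 0.859-fold to 1.36-fold.

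Mxd3, the MXD member known from cycling cells (chromosome 13, 55325170 to 55329900, minus strand), had 709, 231 and 549 normalized counts in WT and 549, 565 and 612 in Stat3β TG. WT 2 was far below the other 5 libraries. Its log2 difference came to 0.36 ± 0.39 (SE; limma adjusted p = 0.760), with a 95% interval of 0.683-fold to 2.40-fold, and it was -0.12 without WT 2. With WT 2 as the only WT library, assumed to vary like the others, it was 1.31. WT 2 was the lowest library for 26% of all tested genes and the highest for 24.0%, each the largest share of any library.

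For Mxd4 (chromosome 5, 34176580 to 34187710, minus strand), a repressor typical of differentiated cells, WT had 1124, 1773 and 1321 normalized counts and Stat3β TG 1426, 1294 and 1207. WT 2 was the highest library and WT 1 the lowest. The log2 difference was -0.08 ± 0.20 (SE; limma adjusted p = 0.891), and 0.10 without WT 2. Exons of Mxd3, Mxd4 and Mxi1 share 105, 514 and 194 bases with genes on the opposite strand (Prelid1, Gm42846 and Gm10197 in GENCODE M21). The handling of strand in counting is not given in the sources used here, so reads from these stretches cannot be assigned.

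Mnt, the broadly expressed antagonist of MYC, was the only tested member (1 of 9) whose groups did not overlap. Over all tested genes, Stat3β TG lay wholly above WT for 5.87% and wholly below it for 4.92%. Mnt lies on chromosome 11 at 74830806 to 74845725 (plus strand). WT libraries were within a narrow band of 2205, 2227 and 2269.7 normalized counts, and Stat3β TG libraries stood at 2899, 2461 and 2333. Stat3β TG 3 was only slightly above WT 3. The means were 2234 ± 32.9 and 2564 ± 296 (SD, n = 3 each), and the log2 difference of 0.19 ± 0.14 did not pass (SE; limma adjusted p = 0.677), with a 95% interval of 0.911-fold to 1.43-fold. It ranged from 0.10, without Stat3β TG 1, to 0.26 when single libraries were left out.

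Mga (chromosome 2, 119872503 to 119970129, plus strand), a large protein with a T-box besides its helix-loop-helix, had 3753, 3908 and 3941 normalized counts in WT. In Stat3β TG it had 4599, 3664 and 3709. Stat3β TG 1 was the highest library and the other 2 of its group the lowest. For the groups this gave a log2 difference of 0.04 ± 0.14 (SE; limma adjusted p = 0.932), and -0.07 without Stat3β TG 1.

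Over the network, no tested member differed past the threshold. By limma, with Benjamini-Hochberg adjustment over all 12642 genes, 0 of 9 members and 0% of all genes passed 0.05. At an unadjusted p under 0.05 the members numbered 0, against 3.56% of all tested genes that were higher and 2.54% lower. On recovered reads edgeR called 0 members and DESeq2 0, where DESeq2 called 0.135% of the 12624 genes to which it gave an adjusted p. All 3 Stat3β TG libraries lay above all WT libraries for 1 of 9 members, Mnt, against 5.87% of all genes. They lay below for 0 of 9, against 4.92%. Of the differences, 6 were positive and 3 negative, with a median of 0.11 beside 0.01 over all genes tested. The median size of difference was 0.14 for members and 0.24 over all genes. Without WT 1 limma called 1.8% of all genes higher and 0.933% lower, and still 0 of 9 members.

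Members differed widely in how much they varied between libraries of a group. Residual SDs of Mnt, Max, Mga and Mxi1 on the log2 scale were 0.12, 0.13, 0.13 and 0.14, beside a median of 0.30 over all tested genes. Only 6.90%, 8.54%, 10.1% and 10.7% of tested genes had smaller ones. Mxd4 was at 0.25, Mxd1 at 0.39, Myc at 0.44, Mxd3 at 0.60 and Mycl at 1.40. The comparison was not matched for level. By mean normalized count, counted from the highest, Mnt, Max, Mga and Mxi1 ranked 3445, 2625, 1970 and 1329 of 12642 tested genes, and Myc 1131.

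**Figure D3:**
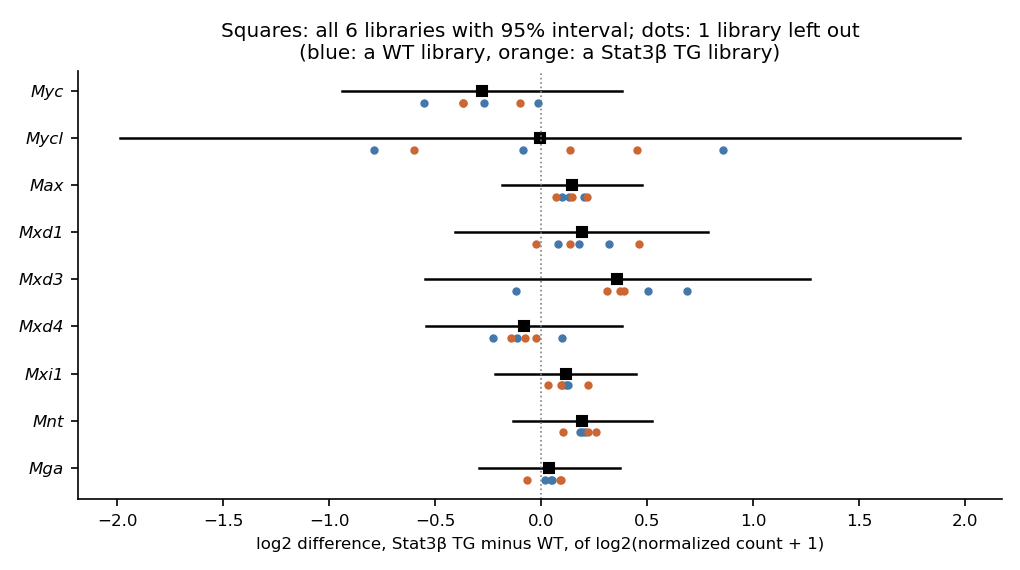
Log2 difference of Stat3β TG minus WT for the 9 tested members, with 95% intervals from limma (squares and lines) and the values after leaving out 1 library (dots; blue a WT library, orange a Stat3β TG library). Every interval spans 0, from the narrow one of Mnt (-0.13 to 0.52) to that of Mycl (-1.99 to 1.98).

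The balance of activators to repressors overlapped between the groups. The 3 MYC genes together, per kilobase, stood to the MXD genes plus Mnt at 0.745, 0.993 and 1.43 in WT 1 to 3 and at 0.795, 0.530 and 1.02 in Stat3β TG 1 to 3. The ratio was highest in WT 3 and lowest in Stat3β TG 2. MYC genes made up 31.2% to 46.2% of the summed network level in WT and 25.5% to 35.6% in Stat3β TG. Max made up 18.2% to 22.7% and 22.2% to 25.8%. The sum of the 4 MXD genes was 2166, 2184 and 2152 per kilobase in WT, a far narrower range than the 2449, 2701 and 2007 of Stat3β TG. This held for the sum and not for each gene. Mxd3 ran from 174 to 534 and Mxd4 from 290 to 457 in WT, against 414 to 461 and 311 to 367 in Stat3β TG. Mxd1 and Mxi1 ranged more widely in Stat3β TG.

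Genes whose pattern over the 6 libraries was most like that of Myc included genes of the nucleolus. Among 10972 genes with a mean of at least 50 normalized counts, those with the highest Pearson correlation on the log2 scale were Nat10, an RNA acetyltransferase of the nucleolus (r = 0.991), Supv3l1, a mitochondrial RNA helicase (r = 0.989), and Tbl3, a component of the small-subunit processome (r = 0.975). Nat10 was at 1964, 2397 and 3025 normalized counts in WT and 2289, 1963 and 2302 in Stat3β TG, with WT 3 highest as for Myc. For Max the closest were Sulf2 (r = 0.987), Nfxl1 (r = 0.970) and F7 (r = 0.969). Closest to Mxd1 were Dusp1, an immediate-early phosphatase of MAP kinases (r = 0.980), Rpl28 (r = 0.979) and Selenon (r = 0.971). Dusp1 had 13406, 26255 and 16251 normalized counts in WT and 29596, 54532 and 13358 in Stat3β TG, with Stat3β TG 2 highest and Stat3β TG 3 lowest, as for Mxd1. These are descriptions over 6 points, chosen as the highest of many, with no test.

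Genes that MYC is known to induce were highest in the library with the most Myc. Of 37 tested genes of this list, 32 (86.5%) had their highest value in WT 3, against 18.4% of all tested genes. Their mean log2 level was 11.35, 11.40 and 11.88 in WT 1 to 3 and 11.31, 11.33 and 11.47 in Stat3β TG 1 to 3. WT 3 stood above the other 5 libraries, which lay close together, although Myc itself differed among them from 4078 to 6434. Between the groups 33 of 37 were lower in Stat3β TG and 4 higher, with a median of -0.18, and 0 passed by limma, edgeR or DESeq2. Only 1, lower in Stat3β TG, had an unadjusted limma p under 0.05, against 2.54% of all tested genes lower at this limit. Without WT 3, 18 of the 37 were lower and 19 higher, and the median was 0.000458. Without WT 1 the median was -0.29. In that setting limma called 1 of the 37 higher and 1 lower, against 1.8% and 0.933% of all tested genes. With all 6 libraries, Stat3β TG lay wholly below WT for 2 of the 37 and wholly above for 0, against 4.92% and 5.87% of all tested genes.

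**Figure D4:**
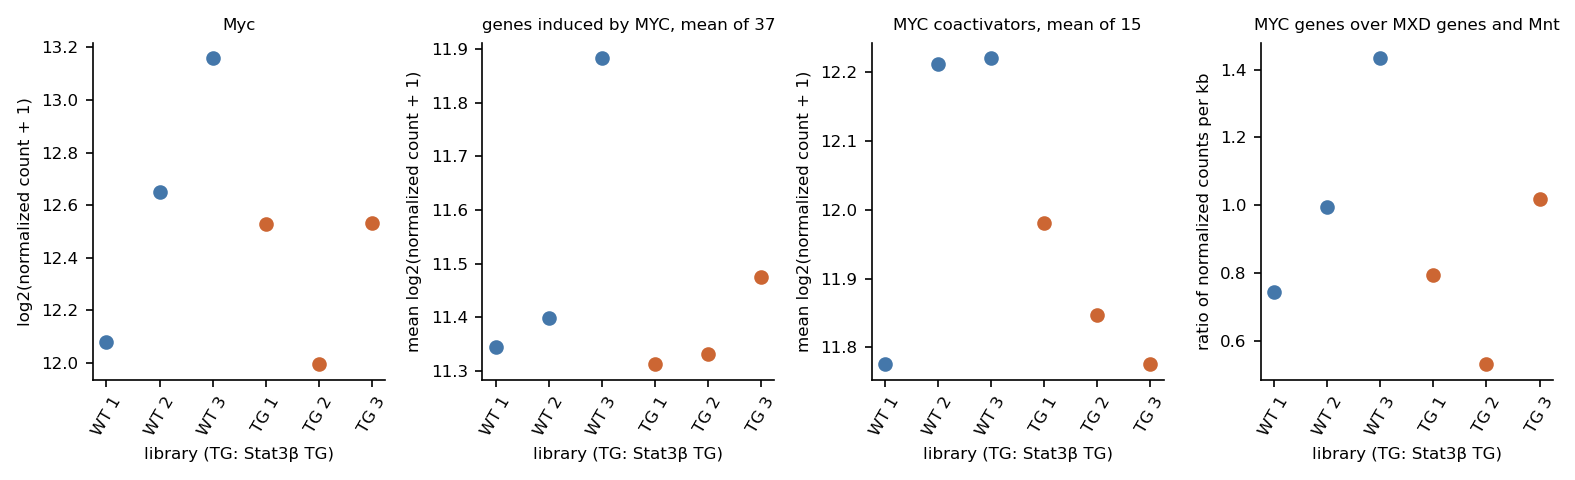
Myc (log2), the mean log2 level of 37 genes induced by MYC and of 15 MYC coactivators, and the per-kilobase ratio of MYC genes to MXD genes plus Mnt, by library (blue WT, orange Stat3β TG; axes do not start at 0). WT 3 is highest in all 4 panels, with WT 2 close to it only for the coactivators.

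Odc1, which makes the first polyamine, putrescine, had the smallest p of the induced genes. It was at 2546, 5071 and 6209.8 normalized counts in WT and 1661, 2546 and 1291 in Stat3β TG. WT 1 and Stat3β TG 2 met at the same level, and the other WT libraries were above all of Stat3β TG. The log2 difference was -1.29 ± 0.37 (SE; limma adjusted p = 0.668; DESeq2 adjusted p = 0.0858). Hk2, a hexokinase, was at 2928 ± 1939 in WT libraries and at 4726 ± 769 in Stat3β TG (SD, n = 3 each). Prmt5, an arginine methyltransferase, was at 3515 ± 926 and 2548 ± 223, and Mybbp1a, a nucleolar protein, at 11349.7 ± 3762 and 8284 ± 392. The Mybbp1a window holds an E-box that begins at transcribed base 41, shown here as far as the window reaches, in capitals on the plus strand (chr11:72441355-72441376).
Mybbp1a: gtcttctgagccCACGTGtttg

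Genes that MYC is known to repress differed in both directions. Of 6 tested, 2 were higher and 4 lower in Stat3β TG, with a median of -0.23, and 0 passed by limma, edgeR or DESeq2. The median was -0.54 without WT 1, -0.57 without Stat3β TG 2, -0.07 without WT 2, -0.09 without WT 3 and 0.10 without Stat3β TG 3, so its sign rested on single libraries. Without WT 1 limma called 1 of the 6, higher, against 1.8% of all tested genes called higher in that setting. Ndrg1, also known as a hypoxia-induced gene, was at 1132, 422 and 447 normalized counts in WT and 1563, 1267 and 2182 in Stat3β TG. Its groups did not overlap, and the log2 difference was 1.44 ± 0.40 (SE; limma adjusted p = 0.668). Gadd45a, a stress-response gene, was at 4059 ± 92.3 and 2608 ± 1213, also without overlap. Of the 6, Stat3β TG lay wholly above WT for 1 and wholly below it for 1, against 5.87% and 4.92% of all tested genes. Cdkn1b, the cell cycle inhibitor p27, was at 2164 ± 539.8 and 2760.2 ± 293 (SD, n = 3 each), and Ndrg2, a relative of Ndrg1, was low at 11.3 ± 6.72 and 6.31 ± 6.30.

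Coactivators that MYC recruits were mostly lower in Stat3β TG, and highest in WT 2 and WT 3. Of 15 tested, 13 were lower and 2 higher, with a median of -0.15, and 0 passed by limma, edgeR or DESeq2. At an unadjusted limma p under 0.05 there was 1, lower in Stat3β TG, against 2.54% of all tested genes lower at this limit. The highest library was WT 2 for 6 and WT 3 for 6, against 24.0% and 18.4% of all tested genes. With WT 1 as the only WT library 12 were higher and 3 lower, and without WT 1 the median was -0.24. Hcfc1, a chromatin cofactor that binds MYC, was at 13808, 21575 and 20808 normalized counts in WT and 15029.8, 12592 and 10683 in Stat3β TG. WT 1 lay within the range of Stat3β TG, and the log2 difference was -0.54 ± 0.22 (SE; limma adjusted p = 0.668). Ccnt1, a cyclin of the elongation kinase P-TEFb, was at 1075 ± 360.3 and 734 ± 204, and Ep400, a chromatin remodeller, at 9758 ± 1757 and 8091 ± 946 (SD, n = 3 each).

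Corepressors of the MXD and MNT proteins were close to level. Among 13 genes of SIN3 and histone deacetylase complexes, 5 had positive and 8 negative differences, with a median of -0.05. By limma, edgeR or DESeq2 0 passed. At an unadjusted limma p under 0.05 there were 0, against 3.56% of all tested genes higher and 2.54% lower. Rbbp7, a histone-binding subunit, averaged 6636 ± 834 over WT and 5518 ± 382 over Stat3β TG libraries (SD, n = 3 each) with no overlap, and its paralogue Rbbp4 13585 ± 1102 and 12253 ± 535. Stat3β TG lay wholly below WT for 1 of the 13, against 4.92% of all tested genes. The deacetylases Hdac1 and Hdac2 were at 1131 ± 137 and 1299 ± 96.5, and at 2785 ± 821 and 3195 ± 388.

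Subunits that join MGA in its Polycomb complex divided evenly, 5 higher and 5 lower of 10, with a median of -0.06. None passed by limma, edgeR or DESeq2. At an unadjusted limma p under 0.05 there was 1, lower in Stat3β TG, against 2.54% of all tested genes lower at this limit. L3mbtl2, a reader of methylated histones, was at 2354, 3437 and 3305 normalized counts in WT and 2328, 2286 and 2125 in Stat3β TG. All Stat3β TG values were below WT, though WT 1 was close, and the log2 difference was -0.41 ± 0.18 (SE; limma adjusted p = 0.668). Stat3β TG lay wholly below WT for 2 of the 10, against 4.92% of all tested genes. E2f6, a repressive E2F, was at 1054 ± 309 and 1426 ± 125, Rnf2, a ubiquitin ligase, at 2534 ± 226 and 2096 ± 216, and its paralogue Ring1 at 963 ± 327 and 1210.3 ± 5.30 (SD, n = 3 each).

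Mlx, the MAX-like partner of the parallel branch, was at 2668, 2179 and 1696 normalized counts in WT and 2739, 2635 and 2481 in Stat3β TG. The log2 difference was 0.29 ± 0.19 (SE; limma adjusted p = 0.675), and its exons share 385 bases with Psmc3ip on the other strand. Mlxip, which senses glucose with MLX, was at 6029 ± 1690.1 and 5521 ± 401. Mlxipl, its paralogue of liver and fat, was low at 25.3 ± 21.1 and 12.6 ± 6.35 (SD, n = 3 each).

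**Figure D5:**
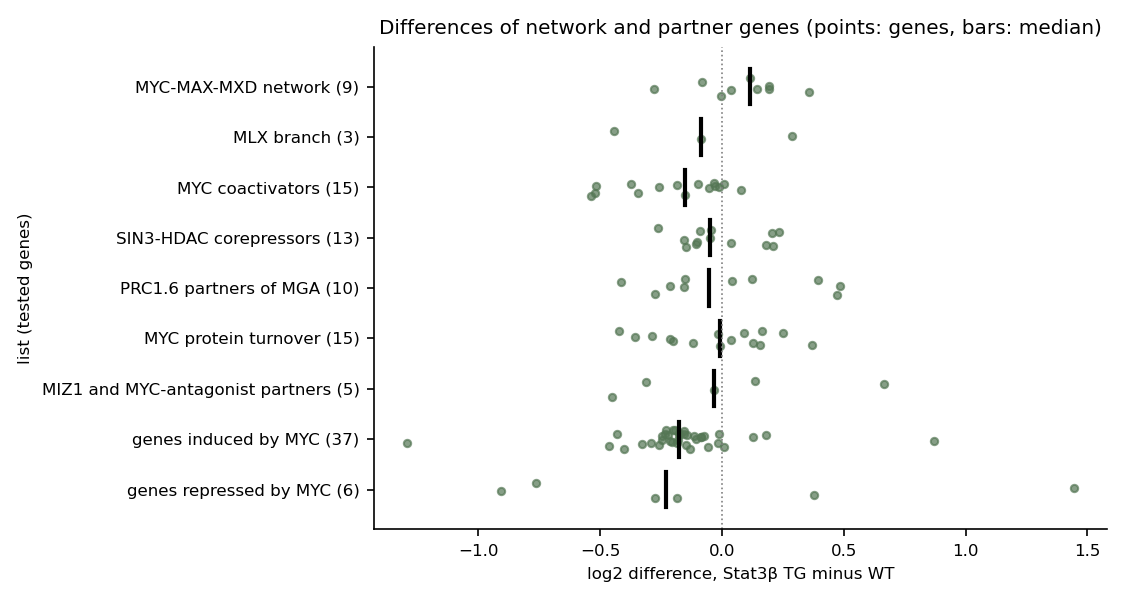
Log2 difference of Stat3β TG minus WT for each tested gene of the network and of 8 lists of partners and targets (points), with each list's median (bar) and the number tested in brackets. List medians lie between -0.23 and 0.11.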

How the data were processed

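RNA sequencing measured transcripts in 6 libraries of sorted mouse blasts; groups and replicate numbers come from the sample titles. The table deposited by the authors holds normalized counts per gene, treated here as a signal. FastQC, STAR and DESeq2 with GRCm38 (mm10) were used, per the submitters' processing notes. Not given in the sources used here: versions, counter, strand setting, annotation. All values of a library are whole multiples of 1 step: 100% of 146724 values came out whole within 0.001, and these whole reads were recovered. Symbols came from RefSeq (GRCm38.p6), for 24376 of 24454 IDs.

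Genes with at least 10 normalized counts in at least 3 libraries were tested as log2(normalized count + 1), which understates changes of low genes. The test was limma 3.58.1 (R 4.3.3; trend, robust, group only, two-sided, Benjamini-Hochberg over all tested genes, threshold 0.05). On recovered reads edgeR 4.0.16 (quasi-likelihood, TMM) and DESeq2 1.42.0 were alternatives. Scripts were tested on simulated data. Every pair of libraries differed by more than sampling noise. Lists are described, not tested. The members and lists were chosen with earlier results of these data known. All 10 members were named, up to 4 genes of each list with the smallest p, and the 3 genes most like Myc, Max and Mxd1. 1 gene that this rule would name is not reported here.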

Additional observations from a re-analysis of the deposited data

How the results depend on the processing

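Over all genes the limma count of 0 became 17 by DESeq2, 9 without both WT 2 and WT 3, 740 without both WT 1 and WT 3, and 0 to 346 when single libraries were left out (346 without WT 1, 5 without WT 2). Among members it was 0 except 1 (Mxd3) without both WT 1 and WT 3. Pseudocounts of 0.5 and 5, no filter, quantile normalization, edgeR and the replicate block called 0 genes. With the replicate block, 0 genes and 0 members passed. After each gene's group mean was subtracted, same-numbered WT and Stat3β TG libraries correlated at 0.141, 0.0995 and -0.107. Differently numbered ones ran from -0.202 to 0.143, so the numbers were not taken as pairs.

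The log2 difference changed sign without both WT 2 and WT 3 for Myc (0.273), Mxd3 (-0.301) and Mxd4 (0.216), and without both WT 1 and WT 3 for Mycl (1.56) and Mxd1 (-0.061). With single libraries left out the ranges were -0.554 to -0.0136 for Myc, -0.788 to 0.858 for Mycl, -0.0229 to 0.463 for Mxd1, -0.117 to 0.688 for Mxd3, -0.229 to 0.0993 for Mxd4 and -0.0688 to 0.095 for Mga; Max, Mxi1 and Mnt kept their sign in all 15 alternatives.

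Shifts of list medians were set against the pooled within-group SD of the list's mean log2 level over libraries. Without both WT 2 and WT 3, medians moved by more than this for coactivators (0.0808), MYC-induced (0.0564), MYC-repressed (0.197) and MIZ1 partners (0.0814). Without both WT 1 and WT 3, they did so for MGA partners (0.0608) and MIZ1 partners (0.0241). For MYC-induced genes this SD was 0.219, so the move from -0.177 to 0.000458 without WT 3 stayed within it. Quantile normalization gave -0.0941 for MIZ1 partners. Single libraries left out gave ranges of -0.572 to 0.102 for MYC-repressed genes, -0.116 to 0.0105 for MGA partners, -0.14 to 0.257 for the MLX branch, -0.121 to 0.0453 for corepressors, -0.012 to 0.0972 for MYC turnover and -0.321 to 0.0839 for MIZ1 partners. The cause was not tested.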

Other observations

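Genes that control the stability of MYC protein were level as a list. Of 15 tested, 7 were higher and 8 lower in Stat3β TG, with a median log2 difference of -0.01. By limma, edgeR and DESeq2 0 were called. At an unadjusted limma p under 0.05 there were 0, against 3.56% of all tested genes higher and 2.54% lower. Stat3β TG lay wholly above WT for 1 of the 15 and wholly below for 0, against 5.87% and 4.92% of all tested genes. Huwe1, a ubiquitin ligase of MYC, averaged 12769 ± 2413 normalized counts over the WT libraries and 9879.7 ± 1046 over the Stat3β TG libraries (SD, n = 3 for these and the values that follow). Axin1, a scaffold, was at 5175 ± 1491 and 3746 ± 267, Cip2a, an inhibitor of the phosphatase PP2A, at 2849.5 ± 429 and 2336 ± 381, and Usp28, a deubiquitinase, at 589.5 ± 168 and 743 ± 42.4. Among 5 other partners of MYC, Nmi had WT values of 438, 168 and 352 and Stat3β TG values of 458, 458 and 492, so that its groups did not overlap. Stat3β TG lay wholly above WT for 1 of these 5, against 5.87% of all tested genes. Bptf, a nucleosome remodeller, was at 6373 ± 1894 and 4573 ± 941, Zbtb17, which encodes MIZ1, at 1983 ± 434 and 1571 ± 84.7, and Trim33 at 2433 ± 152 and 2705 ± 545.

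The STAT motif TTCNNNGAA, which reads the same on both strands, was in the promoter windows of 0 of 9 network genes, against 8.26% of tested genes with a window. It was in 5 of 33 genes induced by MYC (15.2%). Myc had no window, so it is not among the 9. No match says only that these letters are not in these windows.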
